A study of Mus musculus with 12 samples.

Results

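The standard proteasome subunits were taken as all protein-coding mouse genes named Psma, Psmb, Psmc or Psmd with a number, without Psmb8, Psmb9 and Psmb10, which encode the catalytic subunits of the immunoproteasome. The names matched 36 of 55414 gene IDs in the count table, 16 of them Psma and Psmb genes of the core particle and 20 of them Psmc and Psmd genes of the regulatory particle and its assembly. Of these 36 genes, 35 were among the 14310 genes with enough counts to be tested. The gene left untested was Psmb11, a core subunit known from the thymus, with 2 counts over all libraries, and Psma8, a core subunit known from testis, was tested on only 238 counts.

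Macrophages were sorted as CD45+CD11b+F4/80+CD64+ cells from the calf muscle of C57BL6J wild type male mice of 8 to 12 weeks whose femoral artery had been ligated, with groups named by days post injury (dpi) as 1, 2, 4 and 7 dpi. Each time point had 3 RNA-seq libraries, 12 in all, and every group was injured, so that no uninjured muscle entered a comparison. The CD45 gate of the sort was on the digested muscle, which can hold circulating cells beside infiltrated ones. Whether a library came from 1 mouse or from pooled mice is not stated, so the P values measure the spread between these libraries, which may be technical.

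The proteasome is the large protease that degrades proteins tagged with ubiquitin. Its barrel-shaped core particle is built of outer alpha rings, which gate the entrance, and inner beta rings, which hold the cutting sites, and it is capped by a regulatory particle whose base unfolds substrates with a ring of ATPases and whose lid removes ubiquitin. In macrophages it also makes peptides for presentation on MHC class I and degrades the inhibitor of NF-kB during inflammatory signalling, and interferon exchanges the catalytic beta subunits for those of the immunoproteasome.

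Proteasome genes are known to be induced together by the transcription factor Nrf1 (gene Nfe2l1) through antioxidant response elements, so the sequence before the start of each gene was read from RefSeq (assembly GRCm38.p6), which held windows for 29 of the 36 genes. Psma8, Psmb1, Psmb2, Psmb7, Psmc3, Psmd3 and Psmd7 had no entry. The 250 bases upstream of the start are shown for 3 genes on which results below turn. They were taken from the genes whose window held the element TGACNNNGC, so that all 3 carry it. These are the catalytic subunits Psmb5 (chr14:54617996-54618245 on the minus strand) and Psmb6 (chr11:70525107-70525356 on the plus strand), and the lid subunit Psmd12 (chr11:107479278-107479527 on the plus strand). The letters of the element, on either strand, are in capitals, and each sequence is written 5′ to 3′ on the strand of its gene.
Psmb5: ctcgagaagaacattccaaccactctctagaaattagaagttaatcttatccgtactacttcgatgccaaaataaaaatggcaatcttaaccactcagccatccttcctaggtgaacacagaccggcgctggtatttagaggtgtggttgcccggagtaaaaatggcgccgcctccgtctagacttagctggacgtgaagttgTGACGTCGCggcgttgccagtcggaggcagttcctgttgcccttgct
Psmb6: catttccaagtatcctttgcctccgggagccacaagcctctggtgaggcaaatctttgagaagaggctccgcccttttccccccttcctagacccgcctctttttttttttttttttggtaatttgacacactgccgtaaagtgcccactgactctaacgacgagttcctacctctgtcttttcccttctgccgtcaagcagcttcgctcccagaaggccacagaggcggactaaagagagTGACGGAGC
Psmd12: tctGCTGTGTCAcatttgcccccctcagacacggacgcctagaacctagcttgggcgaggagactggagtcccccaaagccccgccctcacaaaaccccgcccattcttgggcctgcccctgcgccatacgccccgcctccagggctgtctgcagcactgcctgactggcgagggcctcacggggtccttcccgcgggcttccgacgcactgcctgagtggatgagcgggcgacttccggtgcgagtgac
In Psmb5 the letters began 47 bases before the start, in Psmb6 9 bases before it, and in Psmd12 they lay 247 bases before it on the opposite strand. TGACNNNGC was present in the 300-base window, 250 bases before to 50 after the start, of 5 of 29 genes (17.2%), namely Psmb5, Psmb6, Psmc6, Psmd9 and Psmd12, against 12.4% of 32851 windows of all genes. The letters CCAAT, on either strand, were found in 12 of 29 genes (41.4%) against 37.4% of all windows, and TGACTCA, whose letters do not overlap the TGACNNNGC match, was found in 1 gene, Psmd9, against 5.2% of windows. The shares in the proteasome genes were thus close to those over all genes, and a match is a description of letters, not a binding site.

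The libraries held 19528316 to 33599472 counts, of which a single gene without a symbol took 14.8 to 55.7%, leaving 8992759 to 18581365 counts for all other genes. CPM, counts scaled to the size of the library, and log2 values below are scaled by TMM, which is meant to reduce the effect of such composition but may not remove it. Macrophage markers summed to 5657 to 14821 CPM in every library, and the 5 T and NK cell markers together never exceeded 0.864 CPM. The 8 macrophage markers did not all move one way from 1 to 7 dpi. In the edgeR test used below, 5 were higher (25% of all genes) and 2 lower (23.3%) at an adjusted P under 0.05. The 2 lower ones were Itgam (log2FC -2.33 ± 0.19, SE) and Fcgr1 (-1.63 ± 0.21). The summed CPM of 6 stromal markers was 14.4 to 50.6 at 1 dpi, 27.4 to 43.3 at 2 dpi, 132 to 255 by 4 dpi and 409 to 831 by 7 dpi, and that of 8 muscle fibre markers was 7.11 to 18.9 at 1 dpi and 40.8 to 105 at 7 dpi. The 5 B cell markers summed to 6.92 to 16.7 CPM at 1 dpi and 125 to 175 at 7 dpi, the 5 endothelial markers to 25.8 to 31.7 and 35.6 to 80.2 CPM, and the 8 neutrophil markers to 211 to 349 and 44.9 to 161 CPM, with 3 of these 8 at 0 counts in all libraries of 7 dpi. Of the 6 tested neutrophil markers 4 were lower from 1 to 7 dpi (23.3% of all genes), namely S100a8, S100a9, Cxcr2 and Mmp8. The median log2FC of the 6 was -6.41, but Csf3r (-0.08 ± 0.20) and Mmp9 (-1.51 ± 1.10) did not pass. The part of these other cells in the results below was not tested. In bulk RNA, fewer cells of a type and less RNA per cell cannot be told apart.

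Proteasome transcripts were most abundant at 1 and 2 dpi and least abundant at 7 dpi. The summed CPM of the tested genes averaged 3053 ± 47.2 (SD, n = 3) at 1 dpi and 3223 ± 79.8 at 2 dpi, and was down to 2114 ± 511 by 4 dpi and 1231 ± 389 by 7 dpi. At 1 dpi the 3 libraries held 3104, 3041 and 3012 CPM, at 2 dpi 3290, 3135 and 3243, at 4 dpi 2703, 1784 and 1855, and at 7 dpi 1193, 862 and 1637. All libraries of 1 and 2 dpi thus lay above all libraries of 4 dpi, which lay above all libraries of 7 dpi. Of the 35 genes, 26 had their highest mean log2 CPM at 2 dpi and 9 at 1 dpi, and all 35 had their lowest at 7 dpi.

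**Figure D1:**
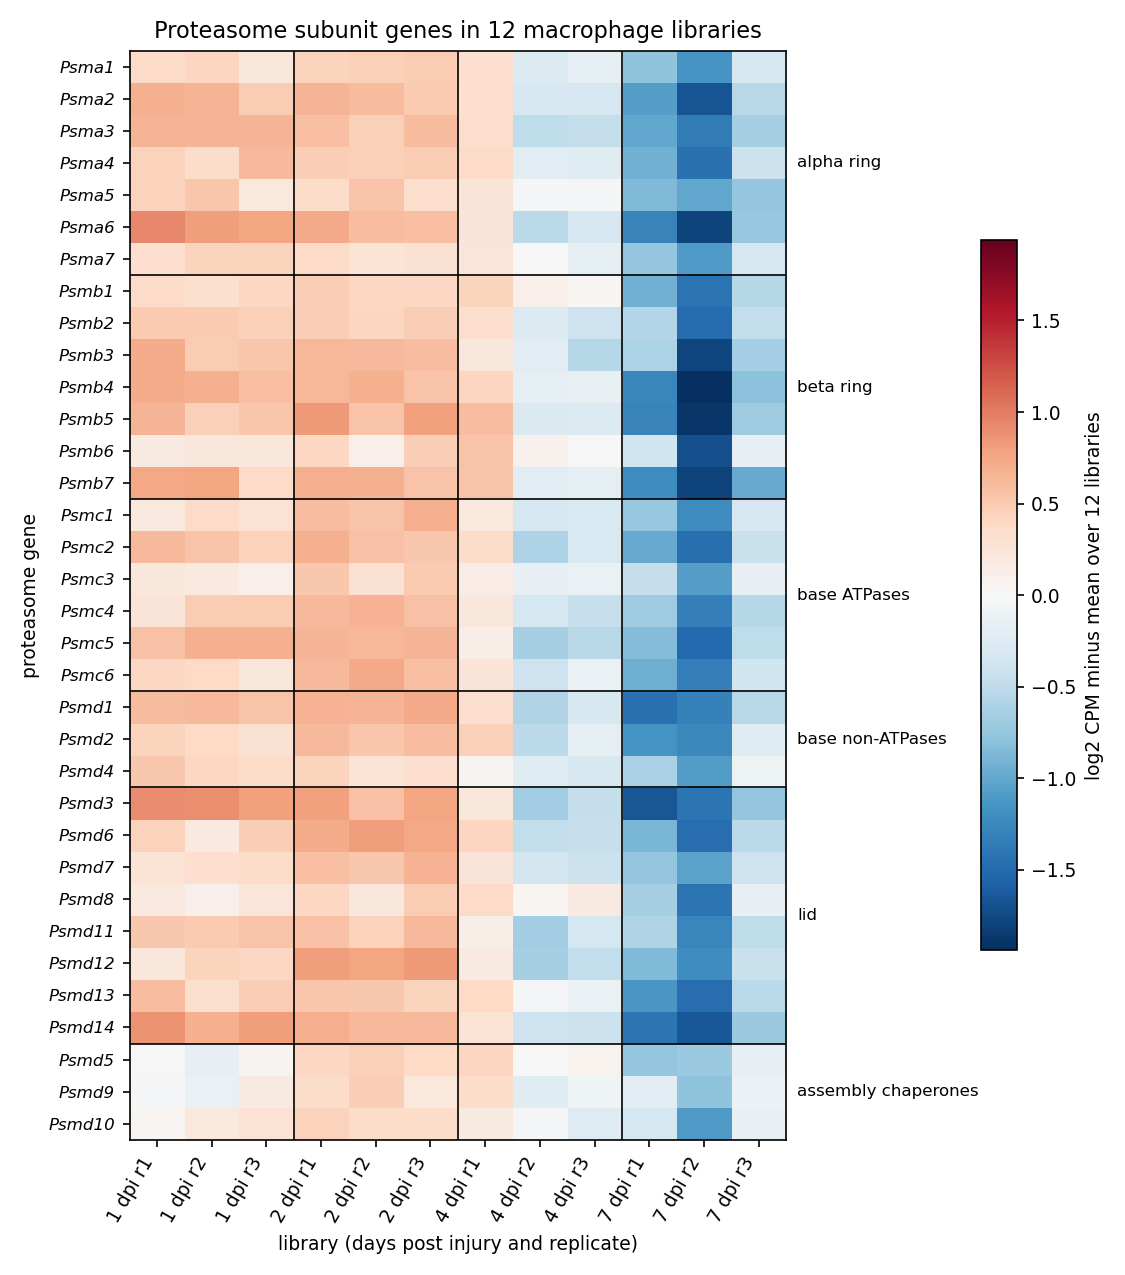
Log2 CPM of each proteasome gene minus its own mean over the 12 libraries (colour), with genes in rows grouped by role and libraries in columns by time point and replicate (r1 to r3). 34 of the 35 tested genes are drawn, without the rarely counted Psma8. Rows are red at 2 dpi, mostly red at 1 dpi and blue at 7 dpi, with Psmd5 and Psmd9 white to blue in some libraries of 1 dpi. Replicate 1 of 4 dpi is redder than the other 4 dpi libraries in all 34 rows, and replicate 2 of 7 dpi is the bluest of its day in 31 rows.

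Libraries of the late time points differed among themselves far more than those of the early ones. The median range of a gene between its 3 libraries was 0.18 on the log2 scale at 1 dpi and 0.14 at 2 dpi, but 0.66 by 4 dpi and 0.93 by 7 dpi. At 4 dpi replicate 1 was the highest library for all 34 of the genes other than Psma8, and at 7 dpi replicate 3 was the highest for 33 and replicate 2 the lowest for 31. Mitochondrial transcripts, as a share of the counts without the most counted gene, were at 6.26% in replicate 1 of 4 dpi against 12.5% and 11.4% in replicates 2 and 3, and were at 6.62%, 18.9% and 9.47% in replicates 1, 2 and 3 of 7 dpi. The part of this share in the results was not tested.

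From 1 to 2 dpi no proteasome gene passed the test. At an adjusted P under 0.05 (edgeR quasi-likelihood test, two-sided, over all 14310 genes), 0 of 35 were higher, where 6.89% of all genes were, and 0 were lower, where 5.6% were. At an unadjusted P under 0.05 there was 1, Psmd5, with a log2FC of 0.45 ± 0.19 (SE), and DESeq2 and limma-voom also called 0, while a fit of only the 6 libraries compared called 4 higher. The median log2FC was 0.07 over the 35 genes and 0.01 over all genes tested. The 3 libraries of 2 dpi lay above all of 1 dpi for 13 of the 35 genes (20.9% of all genes) and below all of them for 2 (18.5%).

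From 2 to 4 dpi 14 of the 35 genes fell (8.7% of all genes were lower at an adjusted P under 0.05, same test), with a median log2FC over the 35 of -0.61, against 0.04 over all genes. Only Psmd12 was a DEG, which asks for an absolute log2FC above 1 as well (3.88% of all genes in this direction). The 14 were 11 of the 17 regulatory subunits and 3 of the 14 core subunits (Psma3, Psma6 and Psmb3), with none of the 3 assembly chaperones. Psma3, Psma6 and Psmb3 were at -0.71, -0.81 and -0.77. The median log2FC was -0.74 over all 17 regulatory subunits and -0.54 over all 14 core subunits, and the difference between the particles was not tested. The libraries of 4 dpi lay below all of 2 dpi for 28 of the 35 (21.8% of all genes). The count of 14 became 1 without replicate 2 or replicate 3 of 4 dpi, 3 without replicate 1 or replicate 3 of 2 dpi, 5 without replicate 2 of 2 dpi, and 23 without replicate 1 of 4 dpi (10 core and 13 regulatory subunits), while all 35 fold changes were below 0 in the fit of the 12 libraries.

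From 4 to 7 dpi 27 of the 35 fell (14.6% of all genes were lower), 7 of them DEGs (5.2%), with a median log2FC of -0.78 against -0.03 over all genes. Here all 14 core subunits fell (median -0.91), with 12 of 17 regulatory subunits (median -0.77) and 1 of 3 chaperones, Psmd5. The 7 DEGs were Psma6, Psmb1, Psmb4, Psmb5 and Psmb7 of the core and Psmd13 and Psmd14 of the lid. Libraries of 7 dpi lay below all of 4 dpi for 22 of the 35 genes (20.7% of all genes), including 14 of 14 core and 7 of 17 regulatory subunits. The count of 27 was 8 without replicate 1 of 4 dpi (6 core and 2 regulatory subunits), 10 without replicate 2 of 7 dpi, 17 without replicate 3 of 2 dpi or replicate 1 of 7 dpi, and 32 without replicate 3 of 7 dpi. A fit of only the 6 libraries compared also gave 8. Without the most counted gene 11 core subunits, 9 regulatory subunits and 1 chaperone fell, and with RLE scaling in place of TMM 11, 7 and 1. Psmb2, Psmb3 and Psmb6 were lost under both.

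**Figure D2:**
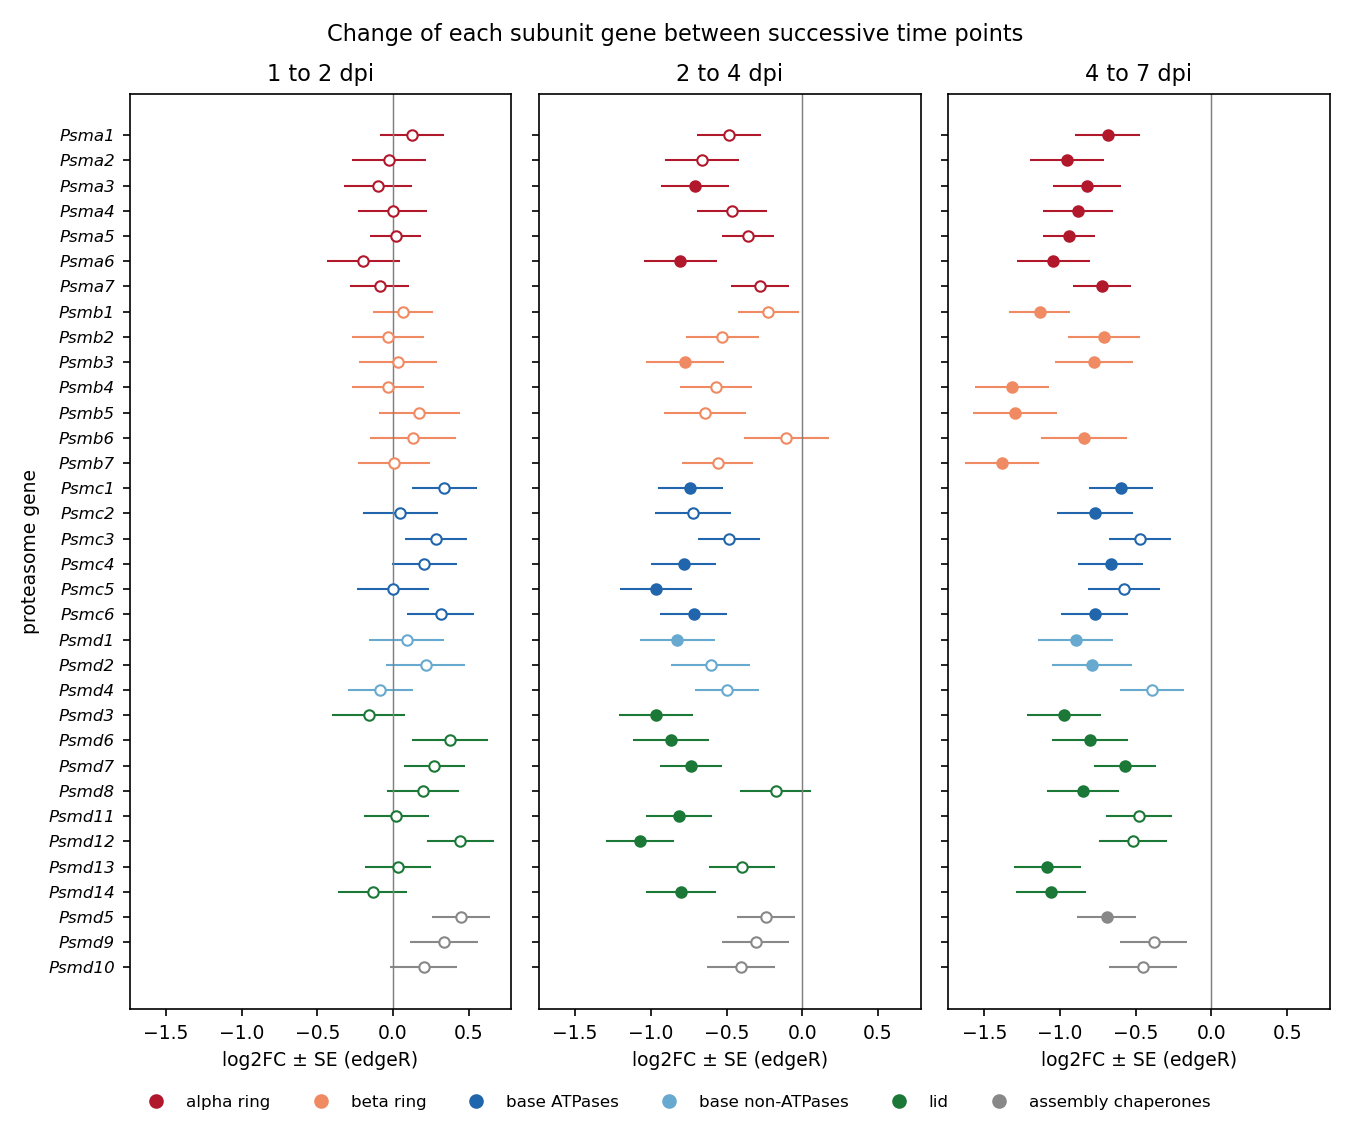
Log2FC with its standard error (edgeR) of the 34 proteasome genes other than Psma8, one panel per transition, coloured by role, with filled points for an adjusted P under 0.05 and open points otherwise. No point is filled from 1 to 2 dpi, 14 are filled from 2 to 4 dpi, and 27 are filled from 4 to 7 dpi, with all 14 core subunits among them.

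Over the whole course, from 1 to 7 dpi, 33 of the 35 genes fell (23.3% of all genes were lower) and 26 were DEGs (14%), with a median log2FC of -1.27 against 0.16 over all genes. All 14 core subunits fell (median -1.43, 13 DEGs), all 17 regulatory subunits fell (median -1.24, 13 DEGs), and of the chaperones Psmd5 and Psmd10 did. The Psmd5 call (adjusted P = 0.0489) stood in only 4 of 20 alternative settings and was lost under DESeq2 and RLE scaling among others, and that of Psmd10 stood in 14. The 2 genes that did not pass were Psmd9, at -0.35 ± 0.22 (adjusted P = 0.203), and Psma8, at -0.45 ± 0.69 (adjusted P = 0.613). Libraries of 7 dpi lay below all of 1 dpi for 32 of the 35 (25.9% of all genes). A test of any change over the 4 time points called 33 of 35 (61.5% of all genes). No proteasome gene rose in any of the 4 comparisons, where 6.89%, 10.8%, 10.9% and 25% of all genes were higher from 1 to 2, 2 to 4, 4 to 7 and 1 to 7 dpi. These comparisons share libraries, so that a gene's values in them are not independent of each other.

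Psma6, an alpha ring subunit, had the highest level per length of all proteasome genes, at a mean of 77.5 RPKM (counts per kilobase of exonic length, scaled as for CPM) over the 12 libraries. It was counted at 156, 144 and 139 CPM at 1 dpi, 136, 123 and 123 at 2 dpi, 96.9, 56.8 and 65.3 at 4 dpi, and 33.4, 23.7 and 49.2 at 7 dpi. Each day lay below the one before it with no overlap between libraries. Psma6 was lower at 4 than at 2 dpi (log2FC -0.81 ± 0.24, adjusted P = 0.0269) and lower again at 7 dpi (-1.04 ± 0.24, adjusted P = 0.00665), in all -2.05 ± 0.25 from 1 to 7 dpi.

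Psma5, another alpha ring subunit, passed the test only in the step from 4 to 7 dpi. Its CPM was 36.0, 38.5 and 30.5 at 1 dpi, 33.8, 38.9 and 33.6 at 2 dpi, 31.3, 25.9 and 25.7 at 4 dpi and 14.5, 13.1 and 15.6 at 7 dpi. The libraries of 1 and 2 dpi overlapped, and the 3 of 7 dpi lay close together at less than any of 4 dpi. The change from 4 to 7 dpi was -0.94 ± 0.17 (adjusted P = 0.00183), and the step from 2 to 4 dpi was -0.36 ± 0.17 (adjusted P = 0.153). All 7 genes of the ring fell from 4 to 7 dpi (14.6% of all genes), between -0.69 for Psma1 and -1.04 for Psma6, and all 7 were DEGs from 1 to 7 dpi.

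In the beta ring all 7 genes fell from 4 to 7 dpi (14.6% of all genes), with a median log2FC of -1.14, and 4 were DEGs (5.2%). From 2 to 4 dpi only Psmb3 passed the test (8.7% of all genes were lower), a call that stood in 12 of 20 alternative settings. All 7 fold changes of that step were below 0, with a median log2FC of -0.56. Psmb7, which carries the trypsin-like cutting site, was counted at 42.7, 43.0 and 32.9 CPM at 1 dpi and 41.1, 40.8 and 37.2 at 2 dpi. At 4 dpi it was at 37.0, 21.6 and 22.1 CPM and at 7 dpi at 10.8, 7.24 and 12.9. The 7 dpi libraries were all under the lowest of 4 dpi, and replicate 1 of 4 dpi was within the range of the earlier days. Its change from 4 to 7 dpi, -1.38 ± 0.24 (adjusted P = 0.00144), was the most negative of the 35 genes.

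Psmb5, the subunit with the chymotrypsin-like site that proteasome inhibitors such as bortezomib bind, ran much the same course. It was at 40.4, 35.3 and 37.5 CPM at 1 dpi, 45.4, 37.8 and 44.4 at 2 dpi, 39.0, 21.1 and 21.4 at 4 dpi, and 10.4, 6.93 and 15.9 at 7 dpi. All 7 dpi libraries were lower than all others, and the step from 4 to 7 dpi was -1.30 ± 0.28 (adjusted P = 0.00408). Psmb4, a beta subunit without a cutting site, was at 86.8, 84.4 and 79.0 CPM at 1 dpi, 82.0, 85.2 and 77.6 at 2 dpi, 70.5, 46.3 and 47.7 at 4 dpi, and 22, 13.7 and 30.4 at 7 dpi. It too was lowest in the 7 dpi libraries with no overlap, with -1.32 ± 0.24 (adjusted P = 0.00187) from 4 to 7 dpi.

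Psmb6, the subunit with the caspase-like site, had the smallest fold change of the beta ring from 2 to 4 and from 1 to 7 dpi, but not from 4 to 7 dpi. It was at 75.3, 77.6 and 77.5 CPM at 1 dpi, 87.9, 71.4 and 92.9 at 2 dpi, 97.4, 70.5 and 66.6 at 4 dpi, and 51.0, 20.4 and 59.4 at 7 dpi. Its highest library was replicate 1 of 4 dpi, and the 7 dpi libraries were lower than all others. The step from 2 to 4 dpi was -0.10 ± 0.28 (adjusted P = 0.833), and it fell from 4 to 7 dpi by 0.84 ± 0.28 on the log2 scale (adjusted P = 0.0396). Over the course from 1 to 7 dpi Psmb6 was at -0.82 ± 0.28 (adjusted P = 0.0257), against -1.94 ± 0.25 for Psmb7 and -1.77 ± 0.28 for Psmb5, a difference between genes that was not tested. Annotated pseudogenes of Psmb5, Psmb6 and Psmb7 held at most 22 counts in a library.

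The immunoproteasome subunits, which replace Psmb5, Psmb6 and Psmb7 in newly built cores, did not all move one way (background of genes higher at an adjusted P under 0.05, 10.8% from 2 to 4 dpi and 25% from 1 to 7 dpi). Psmb9, the counterpart of Psmb6, was at 8.02, 7.39 and 8.77 CPM at 1 dpi, 9.50, 8.56 and 6.45 at 2 dpi, 23.3, 23.7 and 23.8 at 4 dpi, and 22.7, 16.0 and 19.3 at 7 dpi. Every library of 4 and 7 dpi lay above every one of 1 and 2 dpi. Psmb9 rose from 2 to 4 dpi by 1.53 ± 0.20 on the log2 scale (adjusted P = 8.92e-05). Psmb8, the counterpart of Psmb5, rose from 2 to 4 dpi (0.48 ± 0.16, adjusted P = 0.0428) and fell from 4 to 7 dpi (-0.58 ± 0.16, adjusted P = 0.0143), and Psmb10 passed no test. From 4 to 7 dpi the libraries of 7 dpi lay below all of 4 dpi for all 3 genes, and from 1 to 7 dpi they lay below all of 1 dpi for Psmb8 (-0.34 ± 0.16, adjusted P = 0.0799) and Psmb10 (-0.46 ± 0.19, adjusted P = 0.0614) and above them for Psmb9.

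Within each library, the immunoproteasome transcript stood higher over its standard counterpart at 4 and 7 dpi than before. The log2 CPM of Psmb8 minus that of Psmb5 averaged 0.50 ± 0.053 (SD, n = 3) at 1 dpi and 0.09 ± 0.17 at 2 dpi, then 1.26 ± 0.42 by 4 dpi and 1.99 ± 0.47 by 7 dpi. For Psmb10 minus Psmb7 the differences were 0.41 ± 0.36, 0.24 ± 0.080, 1.06 ± 0.26 and 1.89 ± 0.27 at the same days. For Psmb9 minus Psmb6 they were -3.24 ± 0.12, -3.36 ± 0.42, -1.70 ± 0.31 and -1.05 ± 0.64. These are differences of CPM between genes of unequal exonic length, so only their change over days can be read. No library of 4 or 7 dpi overlapped with those of 1 and 2 dpi for Psmb9 minus Psmb6 or Psmb8 minus Psmb5, and for Psmb10 minus Psmb7 replicate 1 of 4 dpi, at 0.77, lay under replicate 3 of 1 dpi, at 0.82.

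**Figure D3:**
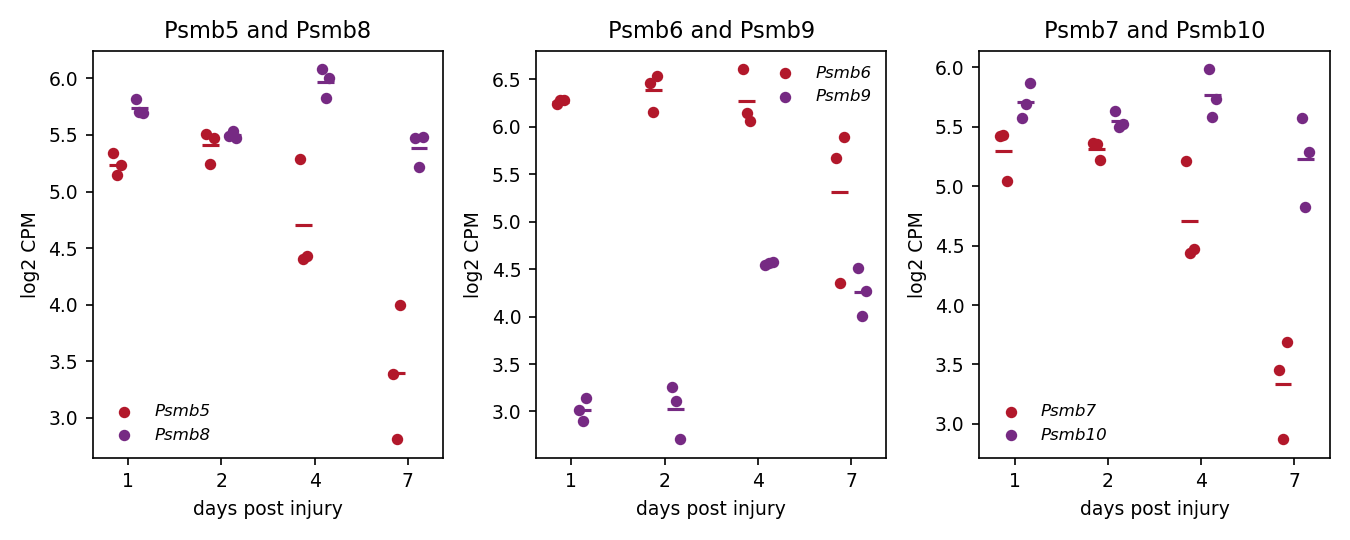
Log2 CPM in each library (points) and the mean of each day (bars) for the catalytic subunits of the standard proteasome (red) and their immunoproteasome counterparts (purple), by days post injury. The red points sink at 7 dpi in each panel, while the purple points of Psmb9 lie higher at 4 and 7 dpi than before. Levels of genes of unequal length are not compared, only their change over days.

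In the regulatory particle, 4 of the 6 ATPases of the base fell from 2 to 4 dpi (Psmc1, Psmc4, Psmc5 and Psmc6, where 8.7% of all genes were lower) and 4 from 4 to 7 dpi (Psmc1, Psmc2, Psmc4 and Psmc6, against 14.6%), and all 6 did from 1 to 7 dpi (23.3%). Psmc5, the ATPase subunit with the second highest level per length of the proteasome genes at 60.9 RPKM, was at 112, 122 and 122 CPM at 1 dpi, 119, 118 and 120 at 2 dpi, 82.3, 48.2 and 52.2 at 4 dpi, and 42.2, 26.5 and 53.6 at 7 dpi. The 4 dpi libraries lay below all earlier ones, whereas those of 4 and 7 dpi overlapped. Its change was -0.97 ± 0.24 from 2 to 4 dpi (adjusted P = 0.00943) and -0.58 ± 0.24 from 4 to 7 dpi (adjusted P = 0.0825).

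Psmc4, another ATPase of the ring, was at 66.6, 78.8 and 78.8 CPM at 1 dpi, 86.4, 89.5 and 83 at 2 dpi, 65.0, 44.3 and 41.0 at 4 dpi, and 34.6, 22.2 and 38.0 at 7 dpi. Its 2 dpi libraries were the highest of the 12, and the libraries of each later day lay below those before. It fell from 2 to 4 dpi by 0.78 ± 0.22 on the log2 scale (adjusted P = 0.0173) and by 0.66 ± 0.22 from 4 to 7 dpi (adjusted P = 0.0332).

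Among the 35 genes taken by name, the 3 other base subunits were the scaffolds Psmd1 and Psmd2 and the ubiquitin receptor Psmd4. Psmd1 was at 182, 183 and 173 CPM at 1 dpi, 189, 187 and 197 at 2 dpi, 148, 79.5 and 95.6 at 4 dpi, and 43.4, 48.1 and 82.1 at 7 dpi. It fell at both later steps, by 0.82 ± 0.25 on the log2 scale from 2 to 4 dpi (adjusted P = 0.027) and by 0.90 ± 0.25 from 4 to 7 dpi (adjusted P = 0.0158), although replicate 3 of 7 dpi lay above replicate 2 of 4 dpi. Psmd2 was at 171, 164 and 156 CPM at 1 dpi, 195, 183 and 192 at 2 dpi, 173, 88.8 and 112 at 4 dpi, and 56.4, 53.3 and 107 at 7 dpi. Here the libraries of 4 and 7 dpi also overlapped, and only the later step passed (-0.79 ± 0.26, adjusted P = 0.0371). Psmd4 passed neither step, at -0.50 ± 0.21 and -0.39 ± 0.21 (adjusted P = 0.113 and 0.181), but fell from 1 to 7 dpi by 0.97 ± 0.21.

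Of the 8 lid subunits among the 35 genes 6 fell from 2 to 4 dpi (8.7% of all genes) and as many, 6, in the step to 7 dpi (14.6%). All 8 fell over the whole course (23.3%), with 7 DEGs (14%). Psmd14, the enzyme that cuts ubiquitin chains off substrates, was at 132, 116 and 125 CPM at 1 dpi, 117, 111 and 111 at 2 dpi, 85.9, 54.6 and 54.0 at 4 dpi, and 26.8, 22.9 and 43.7 at 7 dpi. The libraries of 1 and 2 dpi overlapped, and those of 4 dpi and then of 7 dpi lay below all earlier ones. It fell from 2 to 4 dpi by 0.80 ± 0.23 on the log2 scale (adjusted P = 0.023) and from 4 to 7 dpi by 1.06 ± 0.23 (adjusted P = 0.00518). Psmd3, a structural subunit of the lid, was at 136, 134 and 125 CPM at 1 dpi, 125, 107 and 122 at 2 dpi, 83.4, 45.2 and 52.3 at 4 dpi, and 22.9, 26.9 and 42.4 at 7 dpi. It had the most negative change of the 35 genes from 1 to 7 dpi, -2.10 ± 0.25 (adjusted P = 6.71e-06), with -0.97 ± 0.24 at each of the later steps.

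Psmd12, a lid subunit named here because it was the only DEG from 2 to 4 dpi, was at 70.9, 81.6 and 80.3 CPM at 1 dpi, 106, 103 and 108 at 2 dpi, 68.4, 38.8 and 43.4 at 4 dpi, and 33.6, 26.4 and 45.2 at 7 dpi. Its 2 dpi libraries were the highest of all 12, and those of 4 and 7 dpi overlapped. The change was -1.07 ± 0.22 from 2 to 4 dpi (adjusted P = 0.00335) and -0.52 ± 0.22 from 4 to 7 dpi (adjusted P = 0.0964). The lid subunits Psmd8 and Psmd13 passed in the other step, a difference in timing that was not tested, with -0.18 ± 0.24 and -0.40 ± 0.22 from 2 to 4 dpi (adjusted P = 0.646 and 0.217) and -0.85 ± 0.24 and -1.08 ± 0.22 from 4 to 7 dpi (adjusted P = 0.0171 and 0.00309).

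The assembly chaperones Psmd5, Psmd9 and Psmd10, which help to build the base and are no part of the finished particle, had smaller fold changes than the medians of both particles from 1 to 7 dpi. Psmd5 was at 22.9, 20.4 and 23.7 CPM at 1 dpi, 30.1, 31.7 and 29.7 at 2 dpi, 30.4, 22.9 and 24.1 at 4 dpi, and 13.6, 13.9 and 20.4 at 7 dpi. Its 2 dpi libraries lay above all of 1 dpi, and it fell from 4 to 7 dpi by 0.69 ± 0.19 on the log2 scale (adjusted P = 0.0169). Psmd10 (gankyrin) was at 16.2, 18.1 and 19.2 CPM at 1 dpi, 21.4, 20.1 and 20.1 at 2 dpi, 17.8, 15.5 and 13.3 at 4 dpi, and 12.5, 7.30 and 14.3 at 7 dpi. Its libraries of 4 and 7 dpi overlapped, and it passed the test only from 1 to 7 dpi (-0.65 ± 0.22, adjusted P = 0.0243). The median log2FC of the 3 chaperones from 1 to 7 dpi was -0.48.

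The balance of the 2 particles was compared as the mean centred log2 CPM of the 14 core genes minus that of the 17 regulatory genes in each library. It was 0.09, 0.08 and 0.02 at 1 dpi (mean 0.06 ± 0.037, SD), -0.07, -0.06 and -0.10 at 2 dpi (-0.07 ± 0.019), 0.12, 0.21 and 0.07 at 4 dpi (0.13 ± 0.070), and 0.0040, -0.22 and -0.15 at 7 dpi (-0.12 ± 0.11). The mean was thus below 0 at 2 and 7 dpi and above 0 at 1 and 4 dpi, and the libraries of 2 dpi did not overlap with those of 1 or of 4 dpi, while those of 7 dpi overlapped with those of 2 dpi. These differences were small beside the fall of both particles, whose means went from 0.51 ± 0.045 to -1.01 ± 0.49 for the core and from 0.45 ± 0.013 to -0.89 ± 0.45 for the regulatory particle between 1 and 7 dpi. The value at 1 dpi became -0.0013 when each gene was taken relative to genes of like exonic length, and the libraries of 7 dpi then stood at 0.05, -0.12 and -0.12. No P value is given for a score over chosen genes.

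**Figure D4:**
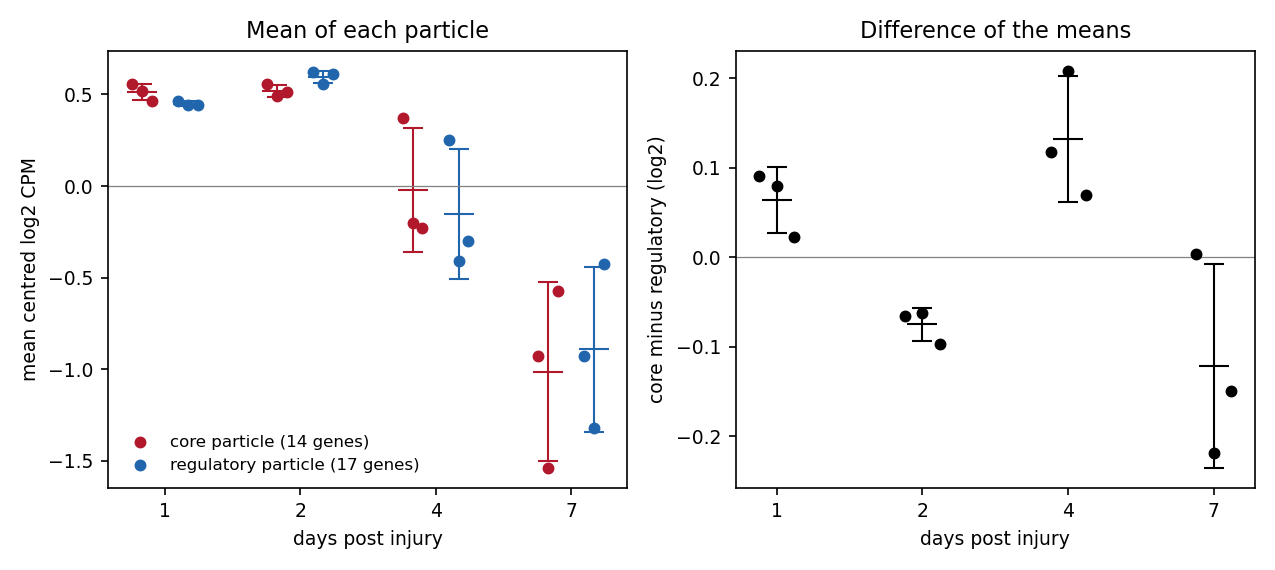
Mean centred log2 CPM of 14 core and 17 regulatory genes in each library (left) and their difference (right), by days post injury, with points for libraries and bars for the mean and SD of 3 libraries. Both particles sink at 4 and 7 dpi with a wide spread, and the difference lies between -0.22 and 0.21 throughout.

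The order in which the medians of the particles stood was the same in each of the 20 alternative settings tried. The core was below the regulatory particle from 1 to 2, 4 to 7 and 1 to 7 dpi, and above it from 2 to 4 dpi. Many of these settings could hardly change this order. Scaling and filtering shift the genes of both particles nearly alike, and leaving out a library of another day keeps the compared libraries in place. The exonic length of the core genes had a median of 2335 bases and that of the regulatory genes 2820, and over all genes the median log2FC from 4 to 7 dpi ran from -0.28 in the shortest of 10 length groups to 0.41 in the longest. After subtracting the median of genes of like length, the medians from 4 to 7 dpi were -0.74 for the core and -0.63 for the regulatory particle, and from 2 to 4 dpi -0.59 and -0.82. From 1 to 7 dpi they came closer to each other, at -1.49 and -1.42 against -1.43 and -1.24 before the subtraction. From 1 to 2 dpi they were -0.0029 and 0.17.

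Subunits of both particles moved together over the 12 libraries, which share their days and their depth. The median Pearson r between pairs of genes was 0.970 among 14 core genes, 0.954 among 17 regulatory genes and 0.949 between the particles, and the same for deviations from the day mean was 0.895, 0.870 and 0.883. Over log2 CPM Psmb6 had the lowest r of the beta ring to the mean of all other members, 0.868, while for deviations from the day mean Psmb3 was lowest, at 0.848 against 0.878 for Psmb6, and Psma8 had r = 0.356 over log2 CPM. Among genes that are no subunit, the profile of the core was closest to Slc35b1, Chchd2, Ran, Gtf2h5 and Raet1d (r = 0.993 to 0.990), and that of the regulatory particle to Rpn1, Adam8, Pno1, Cct7 and Eif2s1 (r = 0.995 to 0.990).

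Other genes of the pathway were counted from lists by role, beside the share of all genes that were lower, which was 8.7% from 2 to 4 dpi, 14.6% from 4 to 7 dpi and 23.3% over the whole course. Of 5 genes for core assembly chaperones, none passed from 1 to 2 or from 2 to 4 dpi, 2 fell from 4 to 7 dpi (Psmg2 and Psmg4), and 4 fell from 1 to 7 dpi, including Pomp, the maturation factor of the core (-0.76 ± 0.21, adjusted P = 0.00647). Of 5 activators and inhibitors, Psme3, which encodes the nuclear activator PA28 gamma, fell from 2 to 4 dpi (-0.72 ± 0.20, adjusted P = 0.02), and Psmf1, an inhibitor, fell from 4 to 7 dpi (-0.65 ± 0.20, adjusted P = 0.0286). The interferon-inducible activator genes Psme1 and Psme2 were at 0.32 ± 0.20 and 0.01 ± 0.23 from 2 to 4 dpi (adjusted P = 0.289 and 0.982). Over the whole course 2 of these 5 genes fell, Psme3 (-1.31 ± 0.21, adjusted P = 7.81e-05) and Psme2 (-0.80 ± 0.23, adjusted P = 0.00972).

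Of 8 factors that are bound to or part of the particle but were not taken by name, 4 fell from 2 to 4 dpi (8.7% of all genes). Among them were the ubiquitin receptor Adrm1 (-0.76 ± 0.22, adjusted P = 0.0241) and the deubiquitinase Uchl5 (-0.69 ± 0.22, adjusted P = 0.0396). In the step from 4 to 7 dpi 3 fell (14.6%), among them Sem1 (-0.85 ± 0.18, adjusted P = 0.00362). In the other direction Akirin2, known to carry proteasomes into the nucleus, rose from 4 to 7 dpi (0.86 ± 0.31, adjusted P = 0.0497, where 10.9% of all genes were higher). Its CPM was 6.26, 7.81 and 7.24 at 4 dpi and 21.4, 9.24 and 8.03 at 7 dpi, where replicate 1 stood apart. From 1 to 7 dpi Akirin2 did not pass the same test (adjusted P = 0.0531). Of 9 shuttle factors and unfoldase genes, 4 fell in the step from 2 to 4 dpi (8.7% of all genes), 3 in that from 4 to 7 dpi (14.6%) and 7 over the whole course (23.3%), including the unfoldase Vcp (-1.42 ± 0.24, adjusted P = 0.000143), while Ddi2, the protease that activates Nrf1, and the shuttle factor Ubqln2 rose from 1 to 7 dpi (1.05 ± 0.18 and 0.86 ± 0.26, adjusted P = 0.000143 and 0.0113). Among the ubiquitin and E1 genes, the main E1 enzyme gene Uba1 fell at both later steps (-0.73 ± 0.19 and -1.13 ± 0.20, adjusted P = 0.0138 and 0.00136).

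Of 8 genes of the transcription control of proteasome genes, 1 fell from 1 to 2 dpi (5.6% of all genes). From 2 to 4 dpi 3 fell (8.7%) and 1 rose (10.8%), and from 4 to 7 dpi 2 rose (10.9%). Nfe2l1 (Nrf1) fell from 2 to 4 dpi (-0.72 ± 0.20, adjusted P = 0.0161) and rose from 4 to 7 dpi (0.69 ± 0.20, adjusted P = 0.0189). Its partner Mafg did likewise, at -1.05 ± 0.21 and 0.74 ± 0.21 (adjusted P = 0.00248 and 0.0184). Maff fell from 1 to 2 dpi (-1.27 ± 0.30, adjusted P = 0.0108) and from 2 to 4 dpi (-0.99 ± 0.31, adjusted P = 0.0315), and Keap1, which holds the related factor Nrf2 in check, rose from 2 to 4 dpi (0.79 ± 0.21, adjusted P = 0.0148). For Nfe2l2 (Nrf2) itself the changes were 0.03 ± 0.19 and 0.53 ± 0.20 from 2 to 4 and from 4 to 7 dpi (adjusted P = 0.932 and 0.0552). The part of these factors in the changes of the proteasome genes was not tested.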

How the data were processed

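Macrophage RNA from 12 libraries was measured by RNA-seq, prepared by a Smart-seq2/3 protocol. Per the labels, the authors used Trim Galore 0.6.6, HISAT2 2.2.1 and Subread 2.0.1 with GRCm39, and the deposited values are raw counts per gene, which were used as deposited. Small counts, from 1 to 20, were even numbers in 83.1% of cases (median of the libraries), so that mates may have been counted singly, and small counts may overstate fragments. A GRCm38 annotation supplied symbols and exonic lengths through the Ensembl IDs (52133 of 55414 matched), so coordinates are given only for RefSeq promoter windows.

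The fit used edgeR 4.0.16 in R 4.3.3 (filterByExpr, TMM, quasi-likelihood F test with 1 coefficient per time point over all 12 libraries), with Benjamini-Hochberg adjustment over 14310 genes, and the steps were tested on simulated data. Limma 3.58.1 and DESeq2 1.42.0 served as alternatives. Log2 CPM used a prior count of 2. DEGs had an adjusted P under 0.05 and an absolute log2FC above 1. The members and lists were chosen with earlier results of these data known. Values in every library are given for the 2 genes of each structural class with the smallest P over the 4 time points, for the 3 catalytic subunits, and for Psmd12, Psmb8, Psmb9 and others that were chosen after their values were seen. No replicates of a day were close enough to be the same library.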

Additional observations from a re-analysis of the deposited data

How the results depend on the processing

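No proteasome gene changed sign in a comparison that called it under any of the 20 settings tried. From 1 to 7 dpi 29 of the 33 calls stood in all settings, those of Psmb6 in 16, Psmc3 in 18, Psmd5 in 4 and Psmd10 in 14, from 4 to 7 dpi 8 of 27 (Psma5, Psma6, Psmb1, Psmb4, Psmb5, Psmb7, Psmd13 and Psmd14), and from 2 to 4 dpi 1 of 14, Psmd12. Leaving out each library in turn gave 1 to 23 lower genes from 2 to 4 dpi, 8 to 32 from 4 to 7 dpi, 29 to 33 from 1 to 7 dpi and 31 to 34 changed over the 4 time points. Fitting only the 6 libraries compared gave 4 higher genes from 1 to 2 dpi and 8 lower from 4 to 7 dpi. With an absolute log2FC above 1 required there were 1 from 2 to 4 dpi and 7 from 4 to 7 dpi. The fit with a replicate block called 0, 15, 26 and 32 genes in the comparisons of 1 with 2, 2 with 4, 4 with 7 and 1 with 7 dpi, moving no count by over 1.5 times; libraries of the same number shared only the number, with correlations of their deviations between -0.13 and 0.13 over 18 pairs, of which 1 was above 0.1. Relative to genes of like exonic length the core minus regulatory difference at 1 dpi was -0.0013, and the libraries of 7 dpi were at 0.05, -0.12 and -0.12. With the 3 chaperones in the regulatory class the difference was 0.12 at 1 dpi and -0.043 at 2 dpi. Leaving out each library moved it between 0.04 and 0.09 at 1 dpi, -0.095 and -0.056 at 2 dpi, 0.11 and 0.17 at 4 dpi, and -0.18 and -0.09 at 7 dpi. The causes were not tested. With 3 libraries a day and a wide spread at 4 and 7 dpi, the counts of both later steps moved more when a library was left out than the count from 1 to 7 dpi did.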
